A study of Homo sapiens with 30 samples.

Results

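The subunits, activators, inhibitor and assembly chaperones of the proteasome were followed on 30 expression arrays of a pair of irradiated B-lymphoblastoid lines. Members were the probe sets whose only annotated gene symbol begins PSMA, PSMB, PSMC, PSMD, PSME, PSMF or PSMG followed by a number. The rule took 65 of 22283 probe sets, for 41 genes. PSMC3IP and PSME3IP1, with 3 probe sets in all, match the prefix by their spelling only and are described apart at the end. The remaining 62 probe sets stand for 39 genes: 6 of the alpha ring, 7 of the constitutive beta ring, 3 of the immunoproteasome, 8 of the base, 6 of the lid, 4 activators and inhibitor, and 5 assembly chaperones. The classes are not complete: PSMA6, PSMA8, PSMB11, PSMC5, PSMD7, PSMD13, PSME2, PSMG3 and PSMG4 had no probe set with that symbol alone. A filter on dim probe sets let through 59 of the 62, and each of the 39 genes kept at least 1. Where a gene had several probe sets, as 16 genes did, its brightest one over all arrays stands for it, with sets of the less specific _x_at kind taken only for lack of others.

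GM15510 and GM15036 are established human lines of B cells immortalised with Epstein-Barr virus. Cultures of each line were exposed to gamma rays of a caesium-137 source at 1, 2.5, 5, 7.5 or 10 cGy, with 3 arrays for each line and dose. No unirradiated group was analysed here, so 1 cGy served as the baseline within a line, and the comparisons within a line share those 3 arrays. Doses are in cGy as on the labels; the design text has the same numbers in Gy. How long after irradiation RNA was taken is not stated in the labels. Whether the 3 arrays of a group stand for separate cultures is not stated. The p-values therefore measure only the spread between arrays, which may be technical. In bulk RNA, fewer cells of a type and less RNA per cell cannot be told apart.

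Array brightness, the trimmed mean of the deposited signal, ranged from 14.1 to 112 and differed with dose. Over the 5 doses, low to high, it averaged 69.4, 18.7, 39.0, 67.7 and 89.1 in GM15510, and 69.6, 49.8, 51.3, 32.4 and 22.1 in GM15036. Each array was scaled to a common trimmed mean of 50.9, and all signals below are on that scale. Arrays of 1 group correlated at 0.901 to 0.972. All 7 measured B cell markers passed the filter on dim probe sets, with a summed signal of 1311 to 2169 per array. Of 23 markers of fibroblasts, monocytes, erythroid cells, T cells and NK cells, 4 passed it, and none had a median signal above 16.1.

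The proteasome degrades proteins tagged with ubiquitin. Its core particle is a barrel of outer alpha rings, which gate the entrance, and inner beta rings, which hold the proteolytic sites in PSMB5, PSMB6 and PSMB7. In lymphoid cells and under interferon these catalytic subunits can be replaced by PSMB8, PSMB9 and PSMB10 of the immunoproteasome, which shape the peptides shown on MHC class I. The regulatory particle caps the core with a base of ATPases (PSMC genes) and scaffold subunits, and a lid that receives and deubiquitinates substrates. Activators of the PSME family can cap the core in its place, and dedicated chaperones assemble the rings.

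Differences are in log2 of scaled signal plus 4, tested with limma over 13331 probe sets with Benjamini-Hochberg adjustment at 0.05. A level of 1 probe set is not set against that of another.

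**Figure D1:**
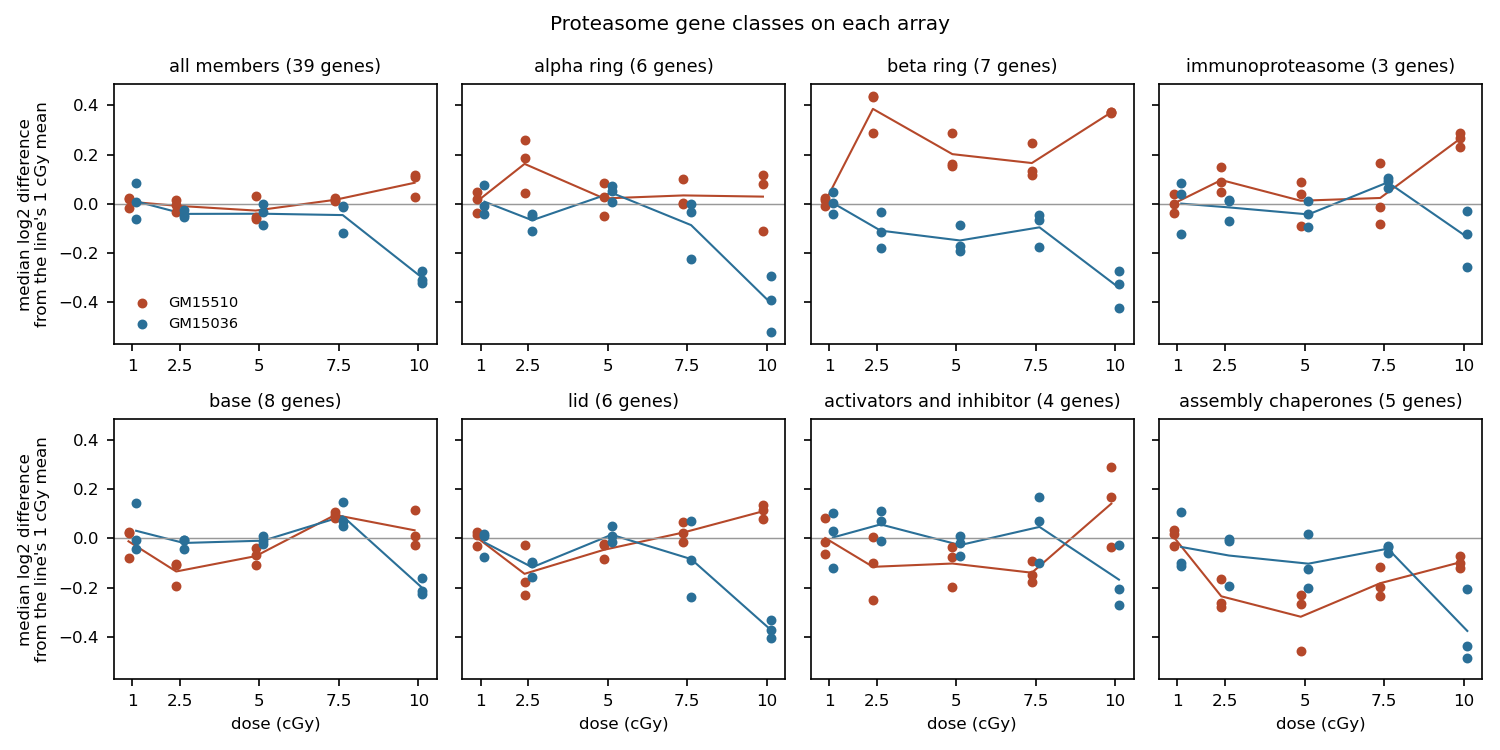
Median log2 difference of the genes of a class from their line's 1 cGy mean (vertical axis) against dose in cGy (horizontal axis), 1 point per array, with lines through the mean of the 3 arrays. All 3 GM15036 arrays at 10 cGy lie below 0 in every panel, and the beta ring panel holds GM15510 arrays above 0 at each dose over 1 cGy.

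The classes did not move alike. Over the 39 genes, the median on an array lay at −0.30 ± 0.02 (SD, n = 3) at 10 cGy in GM15036, against 0.01 ± 0.07 at 1 cGy, and at 0.08 ± 0.05 at 10 cGy in GM15510, against 0.01 ± 0.02 at 1 cGy. The beta ring stood highest in GM15510, with 0.39 ± 0.09, 0.20 ± 0.07, 0.17 ± 0.07 and 0.37 ± 0.003 at the 4 doses above 1 cGy, low to high. The assembly chaperones were below 0 at the same 4 doses in GM15510, at −0.24 ± 0.06, −0.32 ± 0.12, −0.18 ± 0.06 and −0.10 ± 0.02, low dose to high. In GM15036 the medians at 10 cGy were −0.40 ± 0.12 for the alpha ring, −0.34 ± 0.08 for the beta ring, −0.37 ± 0.04 for the lid, −0.38 ± 0.15 for the chaperones, −0.20 ± 0.03 for the base, −0.17 ± 0.13 for the activators and inhibitor and −0.14 ± 0.11 for the immunoproteasome. These medians are descriptions and carry no test.

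In GM15510 at 2.5 against 1 cGy, 5 of the 7 constitutive beta ring genes rose: PSMB1, PSMB2, PSMB3, PSMB4 and PSMB7. Among all 39 genes 6 rose, the sixth being the alpha ring gene PSMA3, and 3 fell. Over the 8103 genes tested, 9.35% were called at this dose, 3.58% higher and 5.78% lower. By probe sets the directions were nearly even: of the 59 member sets 7 rose and 6 fell, where 9.49% of all sets were called, 3.92% higher and 5.57% lower. The sets that fell beside those standing for their genes were of PSMD1, at −0.54, PSMD11, at −0.99, and PSMD12, at −0.57. PSMB7, the catalytic subunit with trypsin-like activity, had signals of 298, 308 and 301 at 2.5 cGy, against 218, 209.6 and 233 at 1 cGy, a log2 difference of 0.45 (SE 0.09, adjusted p = 0.000624). All 3 arrays at 2.5 cGy lay above the highest 1 cGy array. PSMB4, a structural subunit of the ring, had 657, 657 and 656 at 2.5 cGy, against 449, 516 and 489 at 1 cGy, a difference of 0.44 (SE 0.09, adjusted p = 0.00104). Its other probe set gave 0.65 and was called as well. PSMB1, another structural subunit, had 559, 538 and 543 at 2.5 cGy, against 454, 301 and 481 at 1 cGy. That is 0.43 (SE 0.11, adjusted p = 0.00839), with 1 of the 1 cGy arrays, at 301, well below its fellows, and without that array the difference did not pass. The other PSMB1 set had 375, 297 and 367 at 2.5 cGy, against 302, 291 and 317 at 1 cGy, and did not pass.

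PSMB2, also a structural subunit, had 341, 278 and 341 at 2.5 cGy, against 248, 247 and 236 at 1 cGy, a difference of 0.38 (SE 0.09, adjusted p = 0.00641). Its other set, of the _x_at kind, did not pass. PSMB3, a further structural subunit, had 144, 128 and 159 at 2.5 cGy, against 94.7, 120.2 and 102 at 1 cGy, a difference of 0.43 (SE 0.14, adjusted p = 0.0474). The arrays of the 2.5 and 1 cGy groups did not overlap for either gene, but PSMB3 lost its call when any of 17 single arrays was left out. PSMA3, a subunit of the outer ring, differed by 0.30 (SE 0.08, adjusted p = 0.0159) and lost its call without any of 3 single arrays; with a common median per array its difference was −0.03. The other catalytic subunits did not pass: PSMB5, which carries the chymotrypsin-like activity, differed by 0.05, and PSMB6, which carries the caspase-like activity, by −0.03.

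The genes that fell at 2.5 cGy in GM15510 came from other parts of the particle. PSMD9, a chaperone of base assembly, had 143, 133 and 134 at 2.5 cGy, against 197, 261 and 281 at 1 cGy, a difference of −0.82 (SE 0.21, adjusted p = 0.0112). PSMD6, a scaffold subunit of the lid, had 439, 501 and 401 at 2.5 cGy, against 559, 554 and 616 at 1 cGy, a difference of −0.37 (SE 0.10, adjusted p = 0.0117). For both genes every 2.5 cGy array lay below every 1 cGy array. A dim further set of PSMD9 did not pass. PSMC4, an ATPase of the base, had 49.1, 34.1 and 6.44 at 2.5 cGy, against 48.6, 57.3 and 53.7 at 1 cGy, a difference of −1.05 (SE 0.33, adjusted p = 0.0411). Its groups overlapped, and the call was lost without the array at 6.44 or without any of the 3 arrays at 1 cGy. PSMD6 lost its call without 1 array of either group, the third of each, and PSMD9 without the third array at 1 cGy. The 2.5 cGy group had the lowest mean brightness of the line, and the split depends on how they are scaled. With a common median per array, 0 of the 39 genes rose and 14 fell, while 24.9% of all genes were lower and their median moved to −0.33; the beta ring median stood 0.43 above that of all genes there and 0.45 above it in the trimmed-mean scaling. With brightness as a covariate 1 gene, PSMB4, was called, and 0.975% of all genes were. The ACTB 3-prime to 5-prime log2 signal ratio, a measure of RNA integrity, was 4.29 ± 0.56 (SD, n = 3) at 2.5 cGy and 3.75 ± 0.49 at 1 cGy. The same ratio for GAPDH was 2.27 ± 0.11 at 2.5 cGy and 2.47 ± 0.11 at 1 cGy. Of the 7 B cell markers, MS4A1 differed by 0.50, CD74 by −0.45 and PAX5 by 0.33 at 2.5 cGy and passed, and the others did not. The part of these ratios and markers in the result was not tested.

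**Figure D2:**
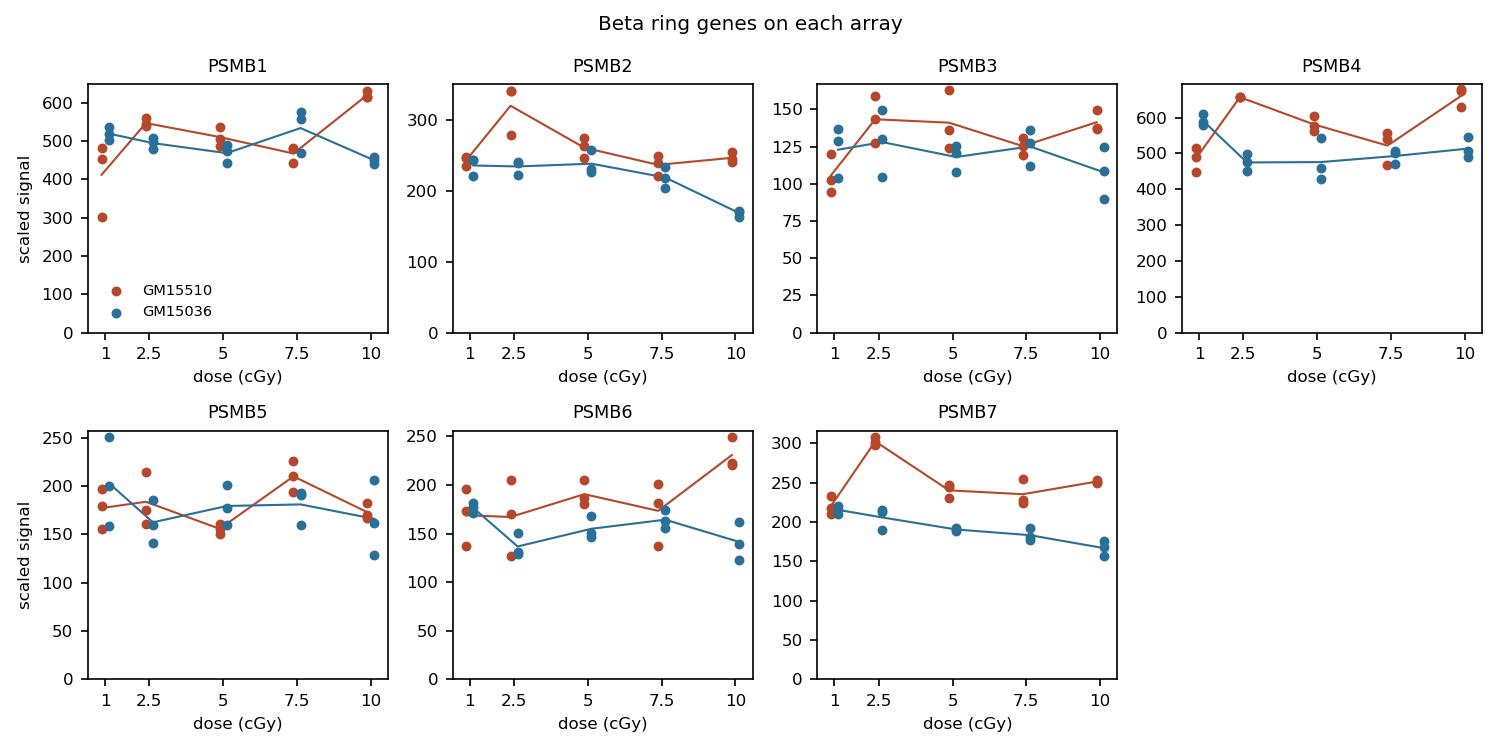
Scaled signal of the 7 constitutive beta ring genes (vertical axis, from 0, a scale of its own for each probe set) against dose in cGy (horizontal axis), 1 point per array and lines through the means of 3. PSMB1, PSMB2, PSMB3, PSMB4 and PSMB7 have all 3 GM15510 arrays at 2.5 cGy above those at 1 cGy, and PSMB2 and PSMB7 have their lowest GM15036 arrays at 10 cGy.

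The promoters of the beta ring genes that rose are shown where a RefSeq window (GRCh38.p14) was at hand, as the 250 bases before the annotated start, 5′ to 3′ on the gene's strand. Capitals mark 3 motifs searched on both strands: TGANNNNGC, the core of the antioxidant response element bound by NFE2L1, which raises proteasome genes when the proteasome is blocked; CCAAT, the box of NF-Y; and CGGAAG, an ETS site. PSMB2 lies at chr1:35641527-35641776 on the minus strand, PSMB3 at chr17:38752491-38752740 on the plus strand and PSMB4 at chr1:151399323-151399572 on the plus strand.
PSMB2: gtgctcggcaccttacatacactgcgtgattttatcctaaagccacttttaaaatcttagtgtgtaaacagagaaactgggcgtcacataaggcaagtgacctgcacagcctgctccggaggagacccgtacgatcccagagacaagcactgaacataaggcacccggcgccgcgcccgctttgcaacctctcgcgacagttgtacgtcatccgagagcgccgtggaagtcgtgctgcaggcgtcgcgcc
PSMB3: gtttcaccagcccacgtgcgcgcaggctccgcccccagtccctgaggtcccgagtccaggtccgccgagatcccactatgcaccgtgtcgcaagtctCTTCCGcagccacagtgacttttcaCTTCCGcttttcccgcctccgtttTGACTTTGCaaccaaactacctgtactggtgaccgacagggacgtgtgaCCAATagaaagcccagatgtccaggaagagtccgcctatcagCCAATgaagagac
PSMB4: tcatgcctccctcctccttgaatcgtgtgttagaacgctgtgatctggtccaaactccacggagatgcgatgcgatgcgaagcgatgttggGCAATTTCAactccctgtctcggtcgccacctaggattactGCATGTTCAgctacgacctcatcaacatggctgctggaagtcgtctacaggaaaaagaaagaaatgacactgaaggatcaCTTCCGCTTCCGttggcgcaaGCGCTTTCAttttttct
The PSMB2 window holds none of the 3 motifs. That of PSMB3 holds 1 TGANNNNGC, 2 CCAAT and 2 CGGAAG, and that of PSMB4 holds 3 TGANNNNGC and 2 CGGAAG, so the 3 genes that moved together share no motif of this search.

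At 5 against 1 cGy in GM15510 limma called 0 of the 39 genes, where 4.15% of all genes were called, 1.86% higher and 2.28% lower. Before adjustment, 6 genes were higher and 4 lower at p under 0.05. PSMB3, at 0.40, and PSMB1, at 0.33, had the largest positive differences, and neither passed (adjusted p = 0.105 and 0.0745). Probe sets not standing for their genes did pass, that of PSMB4 at 0.39 and that of PSMD1 at −0.58. At 7.5 cGy 0 genes were called, where 1.8% of all genes were (1.01% higher and 0.79% lower), and 1 gene was lower at an unadjusted p under 0.05. Over all 13331 probe sets, 2182 had such a p at 5 cGy and 1583 at 7.5 cGy, in either direction.

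At 10 against 1 cGy in GM15510, PSMB1, PSMD11, PSMD4 and PSMB4 rose and PSMD14 fell, 4 and 1 of the 39 genes. Over all genes 6.49% were called, 3.37% higher and 3.12% lower. PSMB1 had 615, 631 and 614 at 10 cGy, against 454, 301 and 481 at 1 cGy, a difference of 0.62 (SE 0.11, adjusted p = 0.000292). PSMB4 had 679.7, 629 and 674 at 10 cGy, against 449, 516 and 489 at 1 cGy, a difference of 0.45 (SE 0.09, adjusted p = 0.000984). The other probe set of each of these beta ring genes rose too, by 0.37 and 0.51. PSMD4, a ubiquitin receptor of the regulatory particle, had 311, 319.6 and 360.1 at 10 cGy, against 198, 224 and 268 at 1 cGy, a difference of 0.52 (SE 0.10, adjusted p = 0.00128). PSMD11, a lid subunit, had 126, 144 and 157 at 10 cGy, against 96.8, 93.8 and 91.8 at 1 cGy, a difference of 0.57 (SE 0.16, adjusted p = 0.0285). For these 4 genes the 10 cGy arrays all lay above the 1 cGy arrays. PSMD11 lost its call when any of 5 single arrays of these groups was left out. The further tested sets of PSMD4 and PSMD11 did not pass.

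PSMD14, the deubiquitinase of the lid, went the other way from the rest of the called genes. It had 874, 908 and 888 at 10 cGy, against 1211, 1244 and 1220.0 at 1 cGy, a difference of −0.46 (SE 0.07, adjusted p = 0.000107), and the groups were far apart with no overlap. PSMB1, PSMD4 and PSMD14 kept their calls under all 9 alternative settings and without each array in turn. PSMB6, at 0.46 (SE 0.14, adjusted p = 0.0542), and PSMB3, at 0.41 (SE 0.14, adjusted p = 0.079), were as high as some called genes but did not pass. Probe sets not standing for their genes also fell, that of PSMA1 by 0.52 and that of PSMA7 by 0.47, while the sets that stand for them differed by −0.08 and 0.05. The ACTB ratio was 5.16 ± 0.10 (SD, n = 3) at 10 cGy and 3.75 ± 0.49 at 1 cGy in this line. The GAPDH ratio was 2.45 ± 0.18 at 10 cGy and 2.47 ± 0.11 at 1 cGy. Of the 7 B cell markers, PAX5 differed by 0.61 and CD74 by −0.41 at 10 cGy and passed, and the others did not. The part of these ratios and markers in the result was not tested either.

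In GM15036 the doses of 2.5 and 5 cGy gave 0 calls among the 39 genes with limma. Over all genes 0.592% were called at 2.5 cGy, 0.0987% higher and 0.494% lower, and 0.148% at 5 cGy, 0.0864% higher and 0.0617% lower. Before adjustment, at p under 0.05, 4 genes were lower and 0 higher at 2.5 cGy, and 4 were lower and 1 higher at 5 cGy. Over all 13331 probe sets, 1262 had such a p at 2.5 cGy and 1063 at 5 cGy, in either direction. PSMB4 had the smallest p at both doses, with −0.32 (SE 0.09, adjusted p = 0.0874) at 2.5 cGy and −0.32 (SE 0.09, adjusted p = 0.129) at 5 cGy. At 7.5 cGy 1 gene rose, where 3.31% of all genes were called, 1.14% higher and 2.17% lower. PSMD8, a lid subunit, had 55.6, 60.8 and 74.0 at 7.5 cGy, against 37.7, 41.9 and 25.6 at 1 cGy, a difference of 0.80 (SE 0.20, adjusted p = 0.0194). Its arrays did not overlap, but the call was lost without 1 array of the 1 cGy group or either of 2 arrays of the 7.5 cGy group.

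At 10 against 1 cGy in GM15036, 12 of the 39 genes fell and 0 rose, the largest count at a single dose in either line. Over all genes 12.2% were called, 4.25% higher and 7.98% lower. The median difference of the 39 genes was −0.29, against 0.02 for all genes, and 34 of the 39 differences were negative. The fallers were PSMA1, PSMA2 and PSMA3 of 6 alpha ring genes, PSMB2 and PSMB7 of 7 beta ring genes, PSMC2 and PSMD1 of 8 base genes, PSMD6, PSMD12 and PSMD14 of 6 lid genes, and PSMD9 and PSMG1 of 5 chaperones. None of the 3 immunoproteasome genes and none of the 4 activators and inhibitor passed. For all 12 the arrays at 10 cGy lay below those at 1 cGy without overlap. The calls rest on these same arrays, so this adds no support, and the share of all genes without overlap was not counted.

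**Figure D3:**
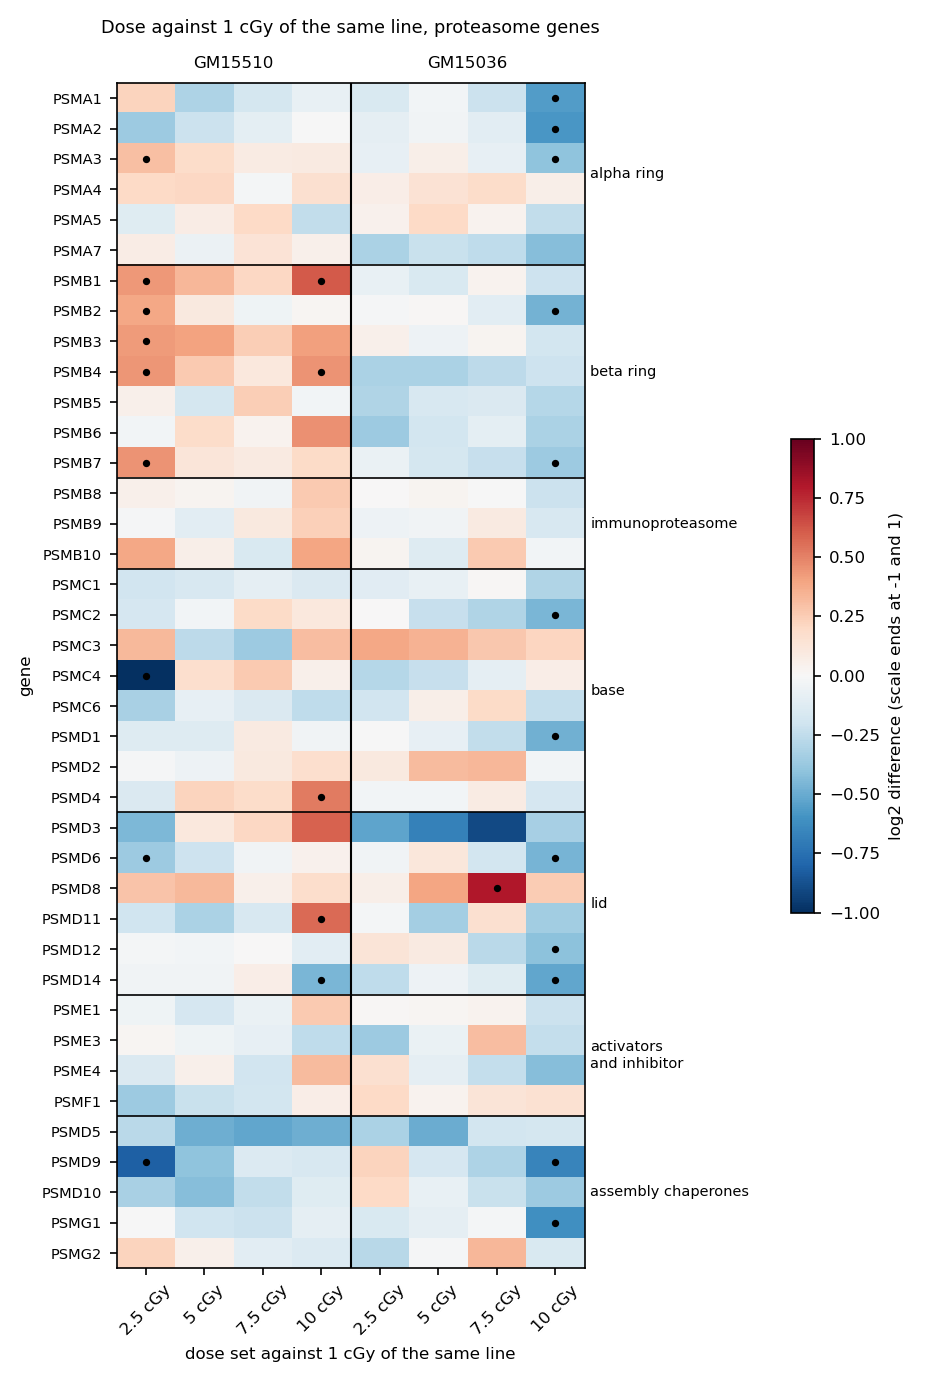
Log2 difference from 1 cGy of the same line for 39 genes (rows, grouped by class) at each dose (columns, GM15510 at left and GM15036 at right); colour runs from −1 (blue) to 1 (red), PSMC4 at 2.5 cGy in GM15510 lies past its blue end, and dots mark calls at an adjusted p under 0.05. Dots gather in the beta ring rows at 2.5 cGy in GM15510 and in 12 rows, all blue, at 10 cGy in GM15036.

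Among the assembly chaperones of GM15036, PSMD9 had 122, 92.7 and 128 at 10 cGy, against 156, 257 and 148 at 1 cGy, a difference of −0.66 (SE 0.21, adjusted p = 0.0347). PSMG1, which helps to build the alpha ring, had 95.9, 124 and 109.7 at 10 cGy, against 157, 184 and 169 at 1 cGy, a difference of −0.62 (SE 0.12, adjusted p = 0.000807). PSMG2, its partner in that chaperone, differed by −0.15 and did not pass. In the alpha ring, PSMA2 had 188, 137 and 211 at 10 cGy, against 275, 267 and 253 at 1 cGy, a difference of −0.58 (SE 0.13, adjusted p = 0.00173). PSMA1 had 194, 132 and 171 at 10 cGy, against 269, 243 and 218 at 1 cGy, a difference of −0.56 (SE 0.15, adjusted p = 0.00941). The other sets of PSMA1, of the _x_at kind, overlapped between the groups and did not pass. They had 630, 620 and 577, and 611, 635 and 637, at 10 cGy. At 1 cGy they had 598, 582 and 771, and 742, 715 and 554. PSMA4, of the same ring, stood at 0.06, so the ring did not fall as a whole.

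In the regulatory particle, PSMD14 had 644, 695 and 649 at 10 cGy, against 1011, 967 and 879.8 at 1 cGy, a difference of −0.52 (SE 0.07, adjusted p = 1.39e-05). PSMD14 was thus lower at 10 cGy in both lines, on separate arrays. PSMD1, the large scaffold subunit of the base, had 298, 345 and 337 at 10 cGy, against 492, 459 and 422 at 1 cGy, a difference of −0.48 (SE 0.08, adjusted p = 0.000105). Its other probe set fell by 0.63. The other fallers lay beyond the 6 largest falls that the naming rule takes and are given for completeness. PSMD6 differed by −0.47, PSMB2 by −0.47, the ATPase PSMC2 by −0.45, the lid subunit PSMD12 by −0.41, PSMA3 by −0.40 and PSMB7 by −0.36. The other PSMB2 set, of the _x_at kind, did not show the fall. It had 72.9, 26.4 and 35.6 at 10 cGy, against at most 34.1 at 1 cGy. The dimmer PSMC2 set had 24.3, 30.9 and 26.05 at 10 cGy, within its range of 20.3 to 38.9 at 1 cGy. These further sets of PSMB2 and PSMC2 did not pass, so both falls rest on the brighter set. Of the other catalytic subunits, PSMB5 had 162, 207 and 129 at 10 cGy, against 251, 200.4 and 158 at 1 cGy, and PSMB6 had 162, 123 and 139.5 at 10 cGy, against 181, 177 and 171 at 1 cGy. Neither passed (adjusted p = 0.242 and 0.161). PSMA7, PSMB1 and PSMB4 did not pass by the probe sets that stand for them, yet a further set of each fell, by 0.62, 0.58 and 0.51.

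The number of fallers in GM15036 depended on how brightness was handled. Brightness was 22.1 ± 10.4 at 10 cGy and 69.6 ± 10.2 at 1 cGy (SD, n = 3). The count was 5 with brightness as a covariate, 6 without the 5 dimmest arrays and 28 with a common median per array, where the median of all genes moved to −0.24. The share of all genes called moved too, to 2.84%, 5.73% and 20.2% under these settings, and 19.5% of all genes were lower with the common median. PSMD1, PSMD6, PSMD14 and PSMG1 kept their calls under all 9 alternative settings and without each array in turn. The ACTB 3-prime to 5-prime log2 ratio was 5.20 ± 0.15 at 10 cGy and 4.48 ± 0.20 at 1 cGy. The GAPDH ratio was 2.84 ± 0.12 at 10 cGy and 2.51 ± 0.17 at 1 cGy. The summed signal of the 7 B cell markers ran from 1996 to 2169 at 10 cGy, against 1514 to 1568 at 1 cGy, with PAX5, a B cell transcription factor, higher by 1.00. PAX5 alone of the 7 passed, and the others differed by −0.15 (MS4A1) to 0.09 (CD74). The 8 T and NK cell markers summed to 67.1 to 82.3 at 10 cGy, against 44.7 to 66.6 at 1 cGy, with CD3E, a subunit of the T cell receptor complex, higher by 1.36; the defining markers CD3D and CD3G did not pass the filter on dim probe sets. The part of these in the result was not tested.

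The promoter windows of the 4 genes that kept their calls under every setting are shown in the same way. PSMD1 lies at chr2:231056617-231056866 on the plus strand, PSMD6 at chr3:64023495-64023744 on the minus strand, PSMD14 at chr2:161308175-161308424 on the plus strand and PSMG1 at chr21:39183452-39183701 on the minus strand.
PSMD1: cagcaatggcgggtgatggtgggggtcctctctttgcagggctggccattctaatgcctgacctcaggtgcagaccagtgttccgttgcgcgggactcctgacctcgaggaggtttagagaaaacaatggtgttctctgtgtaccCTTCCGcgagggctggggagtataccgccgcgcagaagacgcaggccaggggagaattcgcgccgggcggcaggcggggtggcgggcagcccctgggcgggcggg
PSMD6: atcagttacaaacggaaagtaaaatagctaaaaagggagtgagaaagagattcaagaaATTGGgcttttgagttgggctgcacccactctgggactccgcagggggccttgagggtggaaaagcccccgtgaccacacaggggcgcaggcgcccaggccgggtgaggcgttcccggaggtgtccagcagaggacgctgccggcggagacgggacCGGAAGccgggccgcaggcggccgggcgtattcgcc
PSMD14: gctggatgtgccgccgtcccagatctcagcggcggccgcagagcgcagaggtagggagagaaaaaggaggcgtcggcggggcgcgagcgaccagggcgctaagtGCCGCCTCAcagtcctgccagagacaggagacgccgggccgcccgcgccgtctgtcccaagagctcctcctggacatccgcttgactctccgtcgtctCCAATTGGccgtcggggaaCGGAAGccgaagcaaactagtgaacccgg
PSMG1: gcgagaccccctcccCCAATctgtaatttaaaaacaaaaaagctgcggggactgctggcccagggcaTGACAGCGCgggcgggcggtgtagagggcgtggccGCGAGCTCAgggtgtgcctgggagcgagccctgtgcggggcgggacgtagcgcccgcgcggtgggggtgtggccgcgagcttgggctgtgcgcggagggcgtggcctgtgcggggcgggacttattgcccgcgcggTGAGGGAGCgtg
PSMD1 holds 1 CGGAAG, PSMD6 holds 1 CCAAT and 1 CGGAAG, PSMD14 holds 1 TGANNNNGC, 2 CCAAT that overlap on opposite strands and 1 CGGAAG, and PSMG1 holds 3 TGANNNNGC and 1 CCAAT. No motif of the 3 is in all 4 windows.

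RefSeq windows were matched for 34 of the 39 genes, 41 windows in all, since some genes have several starts. In the 250 bases before the start, TGANNNNGC was in 23 of the 41 member windows, 56.1%, and in 35.2% of all 35116 windows. CGGAAG was in 20 member windows, 48.8%, and in 16.5% of all. CCAAT was in 39.0% of the member windows and 32.0% of all. The interferon motifs TTCNNNGAA and the interferon-stimulated response element were in 6 and 3 member windows, 14.6% and 7.32%, against 6.57% and 3.02% of all. By class, TGANNNNGC was in 4 of 5 beta ring windows, 4 of 6 lid windows and 5 of 6 chaperone windows, but in 2 of 8 base windows. These matches are descriptions of the letters and not evidence of binding.

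Several members had large differences that missed the threshold. PSMD3, a lid subunit, had 11.6, 33.9 and 6.14 at 7.5 cGy, against 27.2, 22.6 and 43.4 at 1 cGy in GM15036, a difference of −0.90 (SE 0.53, adjusted p = 0.449). In GM15510 it had 16.7, 27.3 and 16.8 at 10 cGy, against 3.58, 19.5 and 18.2 at 1 cGy, a difference of 0.59 (SE 0.53, adjusted p = 0.702). PSMD5, a chaperone of base assembly, was negative at all 4 doses in both lines, with its lowest value in GM15510 at 7.5 cGy, −0.52 (SE 0.22, adjusted p = 0.299). PSMC3, an ATPase of the base, was positive at all 4 doses in GM15036, with 0.39 (SE 0.19, adjusted p = 0.55) at 2.5 cGy. PSMA4, PSMA5, PSMA7, PSMB5, PSMB6, PSMC1, PSMC6, PSMD2 and PSMD10 likewise passed at no single dose in either line.

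None of the 3 immunoproteasome genes passed in a dose comparison of either line. PSMB8 had 334, 324 and 331 at 10 cGy in GM15510, against 274, 267 and 282 at 1 cGy, a difference of 0.26 (SE 0.10, adjusted p = 0.123). PSMB9 had 409, 437 and 422, against 373, 348 and 349, a difference of 0.24 (SE 0.10, adjusted p = 0.177). PSMB10 had 80.1, 93.2 and 97.8, against 56.4, 58.7 and 93.2, a difference of 0.39 (SE 0.16, adjusted p = 0.177). All 3 were higher at an unadjusted p under 0.05, the arrays of PSMB8 and PSMB9 did not overlap and those of PSMB10 did, and none passed the adjustment. Over all 13331 probe sets, 2198 had such a p in this comparison, in either direction. In GM15036 at 10 cGy the differences were −0.21 for PSMB8, −0.16 for PSMB9 and −0.03 for PSMB10, with adjusted p of 0.171, 0.336 and 0.936. The difference in slope between the lines came near the threshold for PSMB8, at 0.039 (SE 0.013, adjusted p = 0.0526) per cGy.

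Among the activators measured, none passed at a single dose in either line. PSME2 had no probe set with that symbol alone and is not covered. PSME1, a subunit of the interferon-inducible activator, had 333, 291 and 294 at 10 cGy in GM15510, against 236, 258 and 269.7 at 1 cGy, a difference of 0.26 (SE 0.10, adjusted p = 0.167). In GM15036 it had 188, 224 and 195 at 10 cGy, against 253, 236 and 216 at 1 cGy, a difference of −0.21 (SE 0.10, adjusted p = 0.206). PSME3, the nuclear activator, differed at 10 cGy by −0.26 in GM15510 and by −0.24 in GM15036, with overlapping arrays in both lines. PSMF1, an inhibitor of the core particle, stood at 0.07 and 0.15 in the same order.

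Fitted over all 5 doses, the slope in log2 per cGy was positive for PSMD4, PSMD11 and PSMB1 in GM15510 and negative for PSMD14. These are 3 and 1 of the 39 genes, where 5.17% of all genes had a slope, 3.13% upward and 2.04% downward. The slopes were 0.062 (SE 0.010, adjusted p = 0.000165) for PSMD4, 0.056 (SE 0.016, adjusted p = 0.0318) for PSMD11, 0.041 (SE 0.010, adjusted p = 0.0155) for PSMB1 and −0.036 (SE 0.007, adjusted p = 0.00158) for PSMD14. PSMD4 kept its slope call under all 9 settings, whereas PSMD11 lost it without any of 8 single arrays and PSMB1 without either of 2. With brightness as a covariate PSMD4 alone kept it, and PSMD14 lost it with a common median per array too. In GM15036 14 of the 39 genes had a downward slope and 0 an upward one, where 13.8% of all genes were called, 5.06% upward and 8.73% downward. The steepest were PSMD9 at −0.084 (SE 0.020, adjusted p = 0.00449), PSME4, a nuclear activator, at −0.056 (SE 0.016, adjusted p = 0.0167), PSMD12 at −0.055 (SE 0.011, adjusted p = 0.000921), PSMD1 at −0.053 (SE 0.008, adjusted p = 1.33e-05), PSMC2 at −0.053 (SE 0.012, adjusted p = 0.00314) and PSMA2 at −0.052 (SE 0.012, adjusted p = 0.0029). PSMD12 had mean signals of 199, 219, 211, 165 and 149 over the 5 doses, low to high, so its lowest means were those of 7.5 and 10 cGy. Of the GM15036 slopes named here, that of PSMD1 alone kept its call with brightness as a covariate, where 3.11% of all genes were called. Of the 14 slopes, 3 held under every setting and left-out array: PSMD1, PSMD6 and PSMD14.

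The slopes of 11 genes differed between the lines, 10 of them greater in GM15510. Over all genes 11.1% differed, 7.39% greater and 3.73% smaller in GM15510. By role they were PSMA2 of the alpha ring, PSMB1 and PSMB7 of the beta ring, PSMC2, PSMD1 and PSMD4 of the base, PSMD6 and PSMD11 of the lid, the activator PSME4, and the chaperones PSMD9 and PSMG2. PSMD9 had the largest difference, 0.106 (SE 0.029, adjusted p = 0.0132) per cGy, and PSMG2 the opposite sign, −0.043 (SE 0.013, adjusted p = 0.0333). PSME4 differed by 0.084 (SE 0.023, adjusted p = 0.0136), PSMC2 by 0.080 (SE 0.018, adjusted p = 0.00221), PSMD11 by 0.078 (SE 0.022, adjusted p = 0.0177) and PSMD4 by 0.072 (SE 0.014, adjusted p = 0.000696). A dimmer PSME4 set went the other way: its GM15510 minus GM15036 difference fell from 0.46 at 1 cGy to 0.02 at 10 cGy. A further PSME4 set had 0.03 and 0.21 at these doses. A dimmer PSMC2 set had 0.30 at 1 cGy and 0.11 at 10 cGy. PSMB7 lost the call without any of 12 single arrays and PSMG2 without any of 10. PSMD1 and PSMD6 were the 2 that kept the call under all 9 settings and without each array in turn. PSMD14, which was lower at 10 cGy in both lines, had a slope difference of 0.002 (SE 0.010, adjusted p = 0.931). Brightness was highest at 10 cGy in GM15510 and lowest at 10 cGy in GM15036; with it as a covariate 2 of the 39 genes and 1.73% of all genes were called. With a common median per array 24 of the 39 genes had a greater slope in GM15510 and 0 a smaller one, where 18.5% of all genes had a greater and 0.939% a smaller slope.

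**Figure D4:**
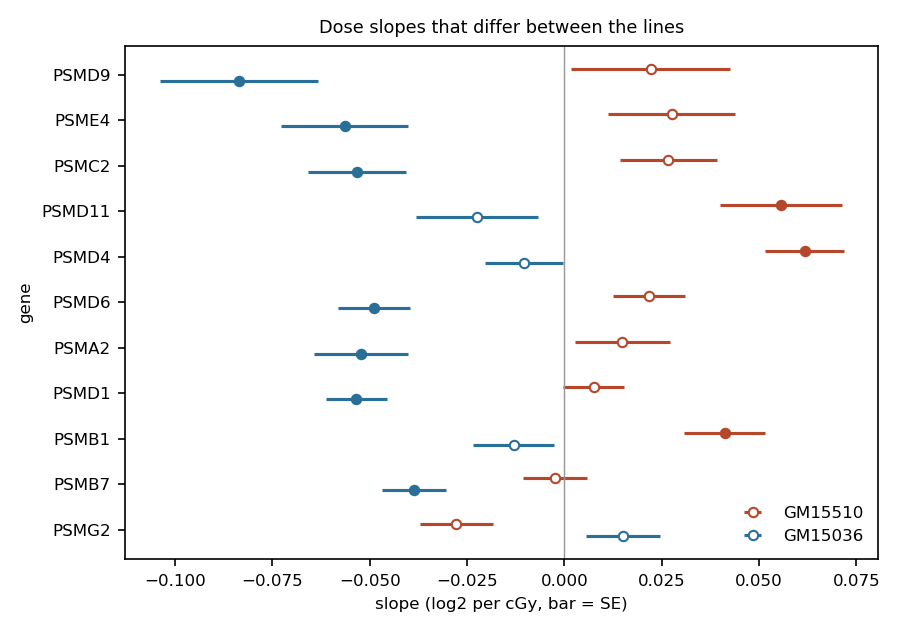
Slope on dose (horizontal axis, log2 per cGy, bars SE) of the 11 genes whose slope differed between the lines, GM15510 drawn above GM15036 in each row; filled points passed the test within the line. In 10 rows the GM15510 point lies to the right of the GM15036 point, and in the row of PSMG2 to its left.

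Averaged over the 5 doses, 27 of the 39 genes were higher in GM15510 than in GM15036 and 1, PSMD4, was lower. Over all genes 49.6% differed, 21.1% higher and 28.5% lower in GM15510, and the median difference was 0.25 for the 39 genes, against −0.08 for all genes. Every class took part: 4 of 6 alpha ring, 4 of 7 beta ring, 2 of 3 immunoproteasome, 5 of 8 base, 5 of 6 lid and 4 of 5 chaperone genes were higher, as were 3 of the 4 activators and inhibitor. PSMD12 had a lowest value of 269, a median of 324 and a highest value of 377 over the 15 GM15510 arrays, and a lowest value of 135, a median of 190.3 and a highest value of 251 over the 15 GM15036 arrays. The lines did not overlap, and the difference was 0.77 (SE 0.05, adjusted p = 5.47e-14). A dimmer probe set of PSMD12 showed no steady difference, with −0.44 at 2.5 cGy, 0.004 at 1 cGy and 0.37 at 10 cGy. The direction of that gene thus rests on the brighter set. PSMA5, of the alpha ring, had a lowest value of 425, a median of 548 and a highest value of 674 in GM15510, and a lowest value of 231, a median of 333 and a highest value of 422 in GM15036, a difference of 0.74 (SE 0.06, adjusted p = 1.63e-11). PSMB8 had a lowest value of 238, a median of 282 and a highest value of 334 in GM15510, and a lowest value of 165, a median of 213 and a highest value of 226 in GM15036. Its difference was 0.47 (SE 0.04, adjusted p = 6.94e-11), and here too the 15 arrays of 1 line lay above the 15 of the other.

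The other large line differences were 0.71 (SE 0.08, adjusted p = 1.13e-08) for PSME3, 0.68 (SE 0.06, adjusted p = 3.10e-12) for PSMG1, 0.64 (SE 0.07, adjusted p = 4.58e-09) for PSMD11 and 0.61 (SE 0.06, adjusted p = 8.97e-11) for PSMC2. A dimmer probe set of PSMD11 was lower in GM15510, at −0.40, so the direction of that gene rests on the choice of probe set. PSMB9 differed by 0.16 (SE 0.04, adjusted p = 0.00243), mostly through 10 cGy, where the difference was 0.49, against 0.01 to 0.13 at the other doses. PSMB10 differed by −0.03 and did not pass. Among the constitutive catalytic subunits PSMB7 differed by 0.37, PSMB6 by 0.25 and PSMB5 by 0.02, of which PSMB5 did not pass. PSMD4, with a GM15510 minus GM15036 difference of −0.15 (SE 0.05, adjusted p = 0.00779), was higher in GM15510 at 10 cGy by 0.35 and lower at the other 4 doses, and lost the call with a common median per array. With a common median per array 31 of the 39 genes were higher and 0 lower in GM15510, where 28.9% of all genes were higher and 17.1% lower. Of the 27 genes, 16 were higher in GM15510 at all 5 doses. The 27 were called on the average of these same doses, and the share among all genes was not counted. Each side is 1 line, and the array labels take another form in each, so line and any difference in handling cannot be told apart. The ACTB ratio was 3.75 in GM15510 and 4.48 in GM15036 at 1 cGy, and 5.16 and 5.20 at 10 cGy. Its part in the line difference was not tested.

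**Figure D5:**
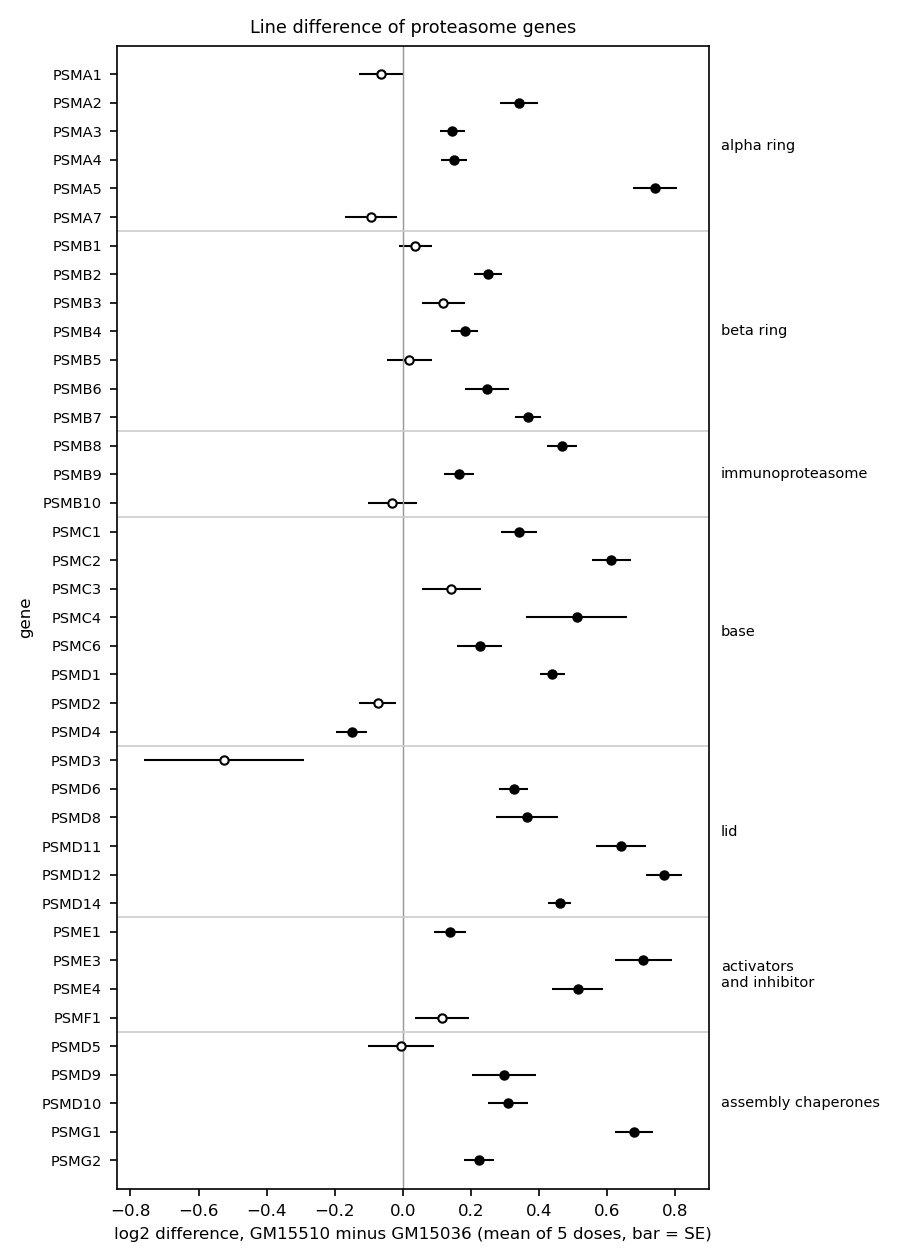
Log2 difference of GM15510 minus GM15036, averaged over 5 doses (horizontal axis, bars SE), for the 39 genes grouped by class; filled points passed at an adjusted p under 0.05. Of the 28 filled points, 27 lie right of 0 and PSMD4 lies left of it.

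Other genes of the ubiquitin-proteasome pathway and of antigen processing were counted from 6 lists, of which 42 genes were tested. At 10 cGy in GM15036 9 fell and 1 rose, 21.4% and 2.38% of the 42, where 7.98% of all genes fell and 4.25% rose. USP14, a deubiquitinase bound to the base, fell by 0.50, TXNL1, a thioredoxin of the regulatory particle, by 0.50, and POMP, which matures the core particle, by 0.46. UFD1 and UBQLN2, which deliver ubiquitinated proteins, fell by 0.58 and 0.54, and the ubiquitin-conjugating enzyme UBE2N by 0.46. TAPBP and B2M, of peptide loading and MHC class I, fell by 0.73 and 0.37, and the interferon receptor IFNGR1 by 0.48. UBQLN4, another shuttle, rose by 0.85. None of the 7 tested regulators of proteasome transcription passed.

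At 10 cGy in GM15510 2 of the 42 pathway genes rose and 5 fell, 4.76% and 11.9%, where 3.37% of all genes rose and 3.12% fell. UBB, a source of ubiquitin, rose by 0.49 and ECPAS, a proteasome adaptor, by 0.41. USP14 fell by 0.28, as it did in GM15036, and the ubiquitin-activating enzyme UBA1 by 0.66. NFE2L2, a stress-response factor, and NGLY1, the glycanase that activates NFE2L1, fell by 0.53 and 0.37, and the kinase JAK2 by 1.08. At 2.5 cGy in GM15510 3 rose and 3 fell, 7.14% each way, where 3.58% of all genes rose and 5.78% fell. The lid component SEM1 rose by 0.56, UBB by 0.57 and UBQLN4 by 1.26. The autophagy receptor SQSTM1 fell by 1.24, the NF-Y subunit NFYB by 0.68 and the folding enzyme PDIA3 by 0.50. How these pathway calls depend on brightness and scaling is not given here. With brightness as a covariate, 0.975% of all genes were called at 2.5 cGy and 7.42% at 10 cGy in GM15510. In GM15036 at 10 cGy it was 2.84%. Both groups where UBQLN4 is given as higher had the lowest mean brightness of their line.

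PSMC3IP, a recombination factor of meiosis, and PSME3IP1, a binding partner of PSME3, are not proteasome subunits. PSMC3IP differed by −0.55 (SE 0.12, adjusted p = 0.00283) at 2.5 cGy in GM15510 and by 0.50 (SE 0.12, adjusted p = 0.00401) at 10 cGy in GM15036. Its other set did not fall in GM15510, with 71.1, 71.3 and 80.1 at 2.5 cGy, against 69.4, 70.5 and 79.4 at 1 cGy. In GM15036 that set had 119, 109 and 101 at 10 cGy, against 95.5, 86.8 and 84.0 at 1 cGy. PSME3IP1 differed by −0.74 (SE 0.19, adjusted p = 0.00848) at 10 cGy in GM15036.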

How the data were processed

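RNA of the irradiated lines was hybridised to 30 Affymetrix arrays after T7 amplification and biotin labelling, per the labels' protocols and the design text. The deposited values are probe set intensity on a linear scale, computed by the authors with MAS5 per the submitters' processing notes; version, scaling target and background settings are not given in the sources used here. Each array was scaled to a common mean of its values between the 2nd and 98th percentile, and log2 of the scaled, deposited intensity plus a pseudocount of 4 was taken. Probe sets below the 40th percentile of mean log2 signal were left out, and 13331 were tested with limma 3.58.1 in R 4.3.3 over all 10 groups at once. Gene symbols came from the platform annotation: 19071 probe sets had 1 symbol, 1043 several and 2169 none, and 5 that name a proteasome gene beside a second symbol were left out. A gene's calls use 1 probe set. Tables were made with Python 3.11.15 and pandas 2.3.3. The fit was tested on simulated data: a first requirement on the share of changed probe sets recovered was missed and was replaced by checks of bias and false calls, so power is modest and a gene that did not pass may still differ. The number of arrays limits the precision.

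Per comparison, up to 6 member genes with the largest rise and up to 6 with the largest fall past the threshold are named, the catalytic subunits and main activators whatever their test, and up to 4 genes of each pathway list. Members and lists were chosen with earlier results of these data known. Whether array labels within a line pair arrays is not stated, and the main fit used no pairing. Residuals of arrays with the same label correlated at −0.062 to 0.097, and those of arrays with different labels at −0.082 to 0.069. Promoter sequences are from RefSeq (GRCh38.p14). Other scalings, pseudocounts, filters, a replicate block, brightness as a covariate and left-out arrays were tried.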

Additional observations from a re-analysis of the deposited data

Results flagged for a closer look

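The slope on dose differed between GM15510 and GM15036, by limma's test of the difference itself, for 11 of the 39 proteasome genes, where 11.1% of all genes differed. In log2 per cGy, slope in GM15510 minus slope in GM15036, the difference was 0.1058 for PSMD9, 0.0840 for PSME4, 0.0800 for PSMC2, 0.0781 for PSMD11, 0.0721 for PSMD4, 0.0705 for PSMD6, 0.0671 for PSMA2, 0.0610 for PSMD1, 0.0542 for PSMB1, 0.0362 for PSMB7 and −0.0428 for PSMG2. PSMD1 and PSMD6 kept the call under all 9 alternative settings and without each array in turn. With brightness as a covariate 2 genes were called, PSMB7 lost its call without any of 12 single arrays, and PSMG2 without any of 10. A dimmer set of PSME4 and a dimmer set of PSMC2 had a smaller line difference at 10 cGy than at 1 cGy, against the direction given here.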

How the results depend on the processing

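Counts are of the 39 proteasome genes called, under 9 alternative settings, 1 of them (without the 5 dimmest arrays) chosen after seeing the data, and the coding of the replicate block was also changed after its first results were seen. With a common median per array, 14 genes were called at 2.5 cGy in GM15510 (0 higher, 14 lower), 2 at 5 cGy, 3 at 10 cGy, 0 at 7.5 cGy in GM15036, 28 at 10 cGy in GM15036 (all lower) and 24 for the slope difference (all greater in GM15510); PSMA3 at 2.5 cGy in GM15510 reversed to −0.032. With brightness as a covariate the counts were 1 at 2.5 cGy and 1 for the slope in GM15510, 1 at 2.5 cGy, 0 at 7.5 cGy, 5 at 10 cGy and 4 for the slope in GM15036, and 2 for the slope difference. Without the 5 dimmest arrays they were 4 at 2.5 cGy in GM15510, 2 at 7.5 cGy, 6 at 10 cGy and 9 for the slope in GM15036, and 5 for the slope difference. A filter at the 60th percentile gave 1 at 5 cGy in GM15510, 2 at 7.5 cGy in GM15036 and 17 for the slope difference, and quantile normalization gave 3 at 7.5 cGy in GM15036. The replicate block gave 8 genes in GM15510 at 2.5 cGy and 2 genes in GM15036 at 7.5 cGy and changed no other count. The cause of these moves was not tested.

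Leaving out each of the 30 arrays in turn gave 5 to 10 genes at 2.5 cGy, 0 to 1 at 5 cGy, 0 to 0 at 7.5 cGy, 4 to 6 at 10 cGy and 2 to 5 for the slope in GM15510. In GM15036 it gave 0 to 0 at 2.5 cGy, 0 to 0 at 5 cGy, 0 to 2 at 7.5 cGy, 9 to 12 at 10 cGy and 12 to 15 for the slope. The line difference kept 28 to 29 and the slope difference 9 to 13. The count of 5 at 2.5 cGy in GM15510 came without the third array of the 1 cGy or of the 2.5 cGy group. The slope count of 2 in GM15510 came without the second array of the 1 cGy or of the 10 cGy group. Of the calls, 25 of 28 line differences held under every setting and left-out array, as did 4 of 12 at 10 cGy in GM15036 and 0 of 9 at 2.5 cGy in GM15510. So did 3 of 14 slopes in GM15036, 1 of 4 slopes and 3 of 5 calls at 10 cGy in GM15510, and 2 of 11 slope differences. The call at 7.5 cGy in GM15036 did not hold. Dim arrays limit what probe sets near the background can show.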
